A study of Mus musculus with 64 samples.

Results

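Whole spleen was set against whole bone marrow in young wild-type mice. The libraries were chosen by their labels: wild type (+/+), no disease, whole tissue, 23 to 28 days old. That gave 6 of the 64 libraries of the series, 3 of spleen and 3 of bone marrow. The mice carried the +/+ genotype of the strain CbyJ.Cby-Rasa3(scat)/Llp, a BALB/cBy line in which homozygotes for the scat allele of Rasa3 have a severe episodic blood disease. The series describes its wild-type mice as littermates of the mutants. The same strain supplied 2 further groups compared below. Mutants in crisis, scat/scat at 23 to 28 days and labelled critical, gave 3 spleen and 3 marrow libraries from 3 mice. An older +/+ mouse of 32 days gave 1 library of each tissue. One alternative fit took its spread from all whole-tissue libraries that were put in a group. These also held mutants labelled as in partial remission, of 32, 33 and 58 days, and a +/+ marrow of 58 days. No mouse was described as treated.

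Spleen 1 and marrow 1 came from mouse 2658 at 28 days, and spleen 2 and marrow 2 from mouse 2685 at 23 days. Spleen 3 and marrow 3 came from different mice of 25 days. The 6 libraries therefore stood for 4 mice, of which 2 gave both tissues. All 6 expressed the Y-linked gene Ddx3y, at 4296 to 5341 normalised counts in the spleens and 3333 to 4537 in the marrows.

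Spleen and bone marrow of a young mouse are both blood-forming organs, but they are built differently. Marrow holds the stem cells and the early steps of granulocyte, platelet, red cell and B-cell production inside bone. Spleen filters blood through its red pulp, where macrophages take up old red cells and recycle their iron, and houses mature lymphocytes in its white pulp. In young mice the spleen also makes red cells.

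Expression is given in the authors' normalised counts, brought to one scale across the 6 libraries by median-ratio rescaling. A difference is spleen minus marrow on the scale of log2(normalised count + 1), with its standard error (SE), so a positive value means more in spleen. A gene passed the test when limma's p-value, adjusted by Benjamini-Hochberg over all genes tested, was under 0.05. Normalised counts are not divided by gene length, so a gene is compared only with itself.

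Rescaled normalised counts summed to between 68.7 and 71.7 M in the spleens and between 57 and 61.3 M in the marrows, with 19132 to 19648 genes above 0 in the spleens and 19005 to 19940 in the marrows. The steps between low values put the reads behind each library at between about 29.9 and 48.4 M in the spleens and between about 29 and 50.4 M in the marrows. Globin transcripts took 16.7%, 16.6% and 17% of the total in the spleens, against 6.06%, 11.6% and 8.73% in the marrows. Each spleen had a larger globin share than each marrow (exact permutation test, two-sided, p = 0.1, the smallest that 3 against 3 allows). The noncoding gene Gm42418 took 5.23%, 2.76% and 6.27% in the spleens, against 0.728%, 0.857% and 0.803% in the marrows. Mitochondrial transcripts took 1.92%, 5.07% and 4.57% in the spleens and 2.79%, 3.66% and 4.04% in the marrows, and these ranges overlapped.

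Of 16445 genes tested, 4883 (29.7%) differed between the tissues. Of all genes tested, 2457 (14.9%) were higher and 2426 (14.8%) were lower in spleen than in marrow. These percentages are the background for every count of genes below. At a difference of at least 2-fold, 1296 genes (7.88%) were higher and 1352 (8.22%) lower. At 8-fold or more, 337 (2.05%) were higher and 335 (2.04%) lower. The groups did not overlap for 7350 genes (44.7%), among them 4853 of the genes that passed. Scaling the libraries to equal totals instead, which shifts the median of all genes to -0.25, gave 1660 higher and 4624 lower. In whole tissue, fewer cells of a type and less RNA per cell cannot be told apart.

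The highest differences among genes with at least 100 normalised counts in the higher tissue belonged to T-cell, mast-cell, macrophage and stromal genes in spleen and to bone and cartilage genes in marrow. Hs3st2, an enzyme that modifies heparan sulfate, had 479, 899 and 871 normalised counts in the spleens, against 0, 3.91 and 0 in the marrows. The tissues were far apart at every library, and the difference was 8.73 ± 0.66 (SE; adjusted p = 9.47e-06), or 9.58 without marrow 2. Art2b, a T-cell surface ADP-ribosyltransferase, had 195, 199 and 228 in the spleens, against 1.84, 0 and 1.38 in the marrows (6.78 ± 0.58, adjusted p = 2.09e-05). The 3 spleens were close to each other and the marrows were at or near 0. Mcpt1, a mast-cell protease, had 254, 169 and 270.4 in the spleens, against 0, 1.3 and 0 in the marrows (7.43 ± 0.60, adjusted p = 1.41e-05). Here too no marrow approached a spleen. At the other end, Col2a1, the main collagen of cartilage, had 0, 0 and 6.95 in the spleens, against 1621, 3245 and 2415 in the marrows. It was absent or nearly so in every spleen, and the difference of -10.19 ± 0.77 (adjusted p = 2.45e-05) was -11.18 without spleen 3. Of the 10 genes with the highest differences by this rule, Trbv20, Trbv5 and Nfasc were listed at 0 in all 3 marrows. Of the 10 with the lowest, Dmp1 was listed at 0 in all 3 spleens.

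Across groups of genes that mark a cell type or a function, T cells, class II antigen presentation and red pulp macrophages stood on the spleen side with all their listed genes, and osteoblasts, cartilage, granulocytes and early B cells stood on the marrow side. The plot of list medians sets them in order. The median difference over all genes tested was -0.00, so a list median away from 0 is away from the middle of the data too.

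**Figure D1:**
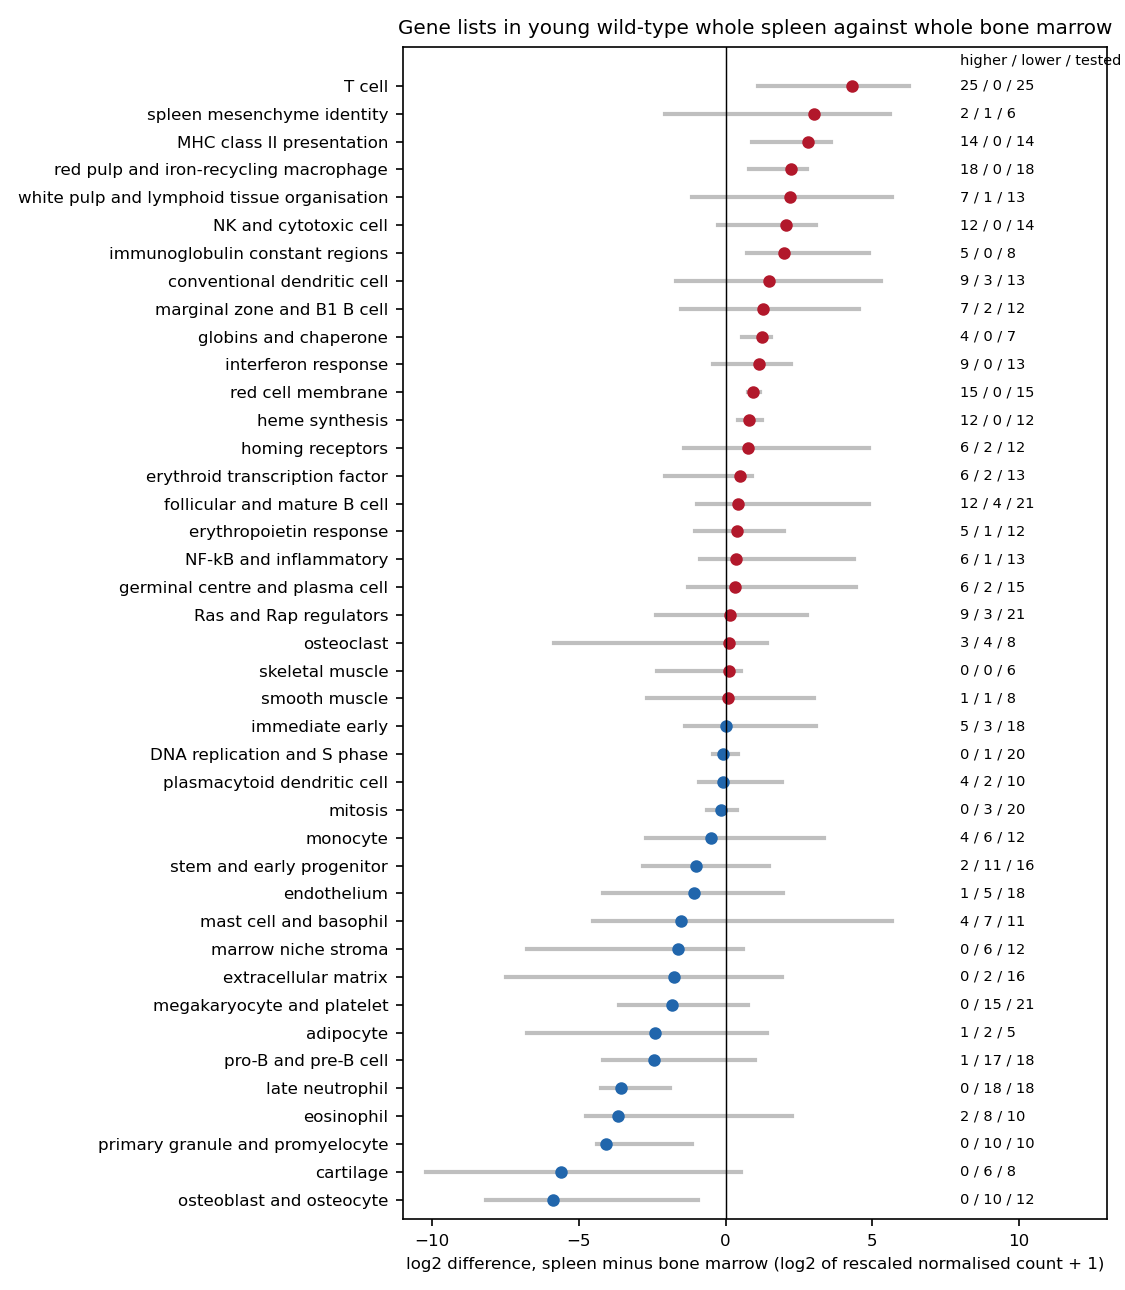
Difference between spleen and bone marrow by gene list in young wild-type mice, on the log2(normalised count + 1) scale, spleen minus marrow. Each dot is a list's median over its tested members, the grey line runs from its lowest to its highest member, and the numbers at the right give members higher, lower and tested. The T-cell median sits at 4.30 with 25 of 25 members higher, and the late neutrophil median at -3.56 with 18 of 18 members lower.

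T-cell genes were higher in spleen without exception among those listed. All 25 listed genes of the T-cell receptor complex, its signalling and the T-cell transcription factors passed, against 14.9% of all genes, with differences of 1.11 to 6.26 and a median of 4.30. Their summed normalised counts were 95689, 70621 and 107072 in the spleens, against 6828, 7304 and 7559.7 in the marrows. The lowest spleen was thus well above the highest marrow. All 25 still passed when any one library was left out.

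Cd3e, a signalling chain of the T-cell receptor complex, had 4652, 3405 and 5658 normalised counts in the spleens, against 57.7, 83.1 and 109 in the marrows. Spleens were high in all 3 mice, and the difference was 5.78 ± 0.26 (adjusted p = 7.69e-07). Cd8a, the coreceptor of cytotoxic T cells, had 4615, 3683 and 4859 in the spleens, against 109, 97.4 and 125 in the marrows (5.30 ± 0.16, adjusted p = 2.49e-07). Cd4, the coreceptor of helper T cells, had 5373, 4414 and 6318 in the spleens, against 345, 459 and 451 in the marrows (3.67 ± 0.17, adjusted p = 7.46e-07). Both coreceptors separated the tissues with no overlap. Foxp3, the transcription factor of regulatory T cells, had 835, 767 and 1095 in the spleens, against 26.4, 20.6 and 19.8 in the marrows (5.27 ± 0.26, adjusted p = 9.72e-07). Bcl11b, which fixes T-cell identity during development, reached the list's highest difference of 6.26 ± 0.28 (adjusted p = 7.91e-07), and Tcf7, another T-lineage transcription factor, differed by 4.95 ± 0.17 (adjusted p = 3.51e-07). Cd3d had the smallest difference of the list: 2116, 1903 and 3523 in the spleens, against 1019, 1117 and 1233 in the marrows (1.11 ± 0.21, adjusted p = 0.00344). Its lowest spleen still lay above its highest marrow.

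Gpr83, a receptor carried by regulatory T cells, had 511, 531 and 603 normalised counts in the spleens, against 3.05, 1.29 and 9.64 in the marrows. The difference was 6.89 ± 0.54 (adjusted p = 1.15e-05), or 7.49 without marrow 3. Dapl1 had 251, 200.2 and 307 in the spleens, against 0, 2.59 and 0 in the marrows. Its difference of 7.35 ± 0.64 (adjusted p = 2.53e-05) was 8.05 without marrow 2. In both genes every marrow value was near 0 and every spleen value far from it.

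The variable segments of the T-cell receptor followed the constant regions. Among the alpha-chain segments (Trav), 26 of 29 tested were higher in spleen and none lower, with a median difference of 4.51. Among the beta-chain segments (Trbv), 16 of 16 tested were higher, with a median of 4.85. The Trbv segments together held 1772, 1342 and 1964 normalised counts in the spleens, against 68.6, 32.5 and 53.3 in the marrows. Trbv20 had 123, 105 and 138 in the spleens and Trbv5 had 96.6, 112 and 138, while both were listed at 0 in each marrow. Segments of one family resemble each other, so the split of reads among them is uncertain.

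B-lineage genes divided by stage of development. Genes of mature B cells were higher in spleen in 12 of 21 and lower in 4, and those of marginal zone and B1 cells higher in 7 of 12 and lower in 2. Genes of pro-B and pre-B cells, the stages at which antibody genes are assembled, were lower in spleen in 17 of 18. Both signalling chains of the B-cell receptor, which early and mature B cells share, overlapped between the tissues. Cd79a had 29309, 34737 and 37298 normalised counts in the spleens and 32625, 35649 and 28064 in the marrows (0.07 ± 0.14, adjusted p = 0.746), and Cd79b differed by 0.04 ± 0.15 (adjusted p = 0.867).

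Receptors of mature B cells were the members that rose most in spleen. Fcer2a, the low-affinity IgE receptor CD23 of follicular B cells, had 13166, 12276 and 14454 normalised counts in the spleens, against 1059, 866 and 1045 in the marrows (3.75 ± 0.12, adjusted p = 2.49e-07). The 3 libraries of each tissue lay close together. Ccr6, a chemokine receptor of mature B cells, had 1309.9, 1369 and 1591 in the spleens, against 60.7, 32.5 and 53.1 in the marrows (4.88 ± 0.25, adjusted p = 1.20e-06). Cxcr5, which guides B cells into follicles, differed by 3.54 ± 0.13 (adjusted p = 3.51e-07). Cr2, the complement receptor CD21 that is highest on marginal zone B cells, had 9892, 12567 and 12221 in the spleens, against 615, 345 and 562 in the marrows (4.54 ± 0.21, adjusted p = 8.87e-07). Ms4a1, which encodes CD20, had 12824, 21080.4 and 16279 in the spleens, against 8427, 5698 and 6405 in the marrows (1.28 ± 0.20, adjusted p = 0.00103). Cd22, an inhibitory receptor, differed by 1.73 ± 0.11 (adjusted p = 3.10e-06). These receptors were higher in every spleen than in any marrow.

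Some genes on the mature B-cell lists moved the other way. Spib, a transcription factor of B cells and plasmacytoid dendritic cells, had 17557, 25413 and 23549 normalised counts in the spleens, against 43608, 40207 and 35585 in the marrows (-0.86 ± 0.16, adjusted p = 0.00272). Fcrla, an intracellular Fc receptor-like protein of B cells, was lower by a similar amount (-0.96 ± 0.17, adjusted p = 0.00203). Cd9, a tetraspanin found on marginal zone B cells and on several other blood cells, had 1421, 1837 and 1784 in the spleens, against 5045, 4569.9 and 4636 in the marrows (-1.51 ± 0.13, adjusted p = 1.76e-05). No spleen reached the lowest marrow in any of the 3.

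The pro-B and pre-B genes showed the reverse of the T-cell picture. Igll1, a stand-in light chain that pairs with Vpreb1 before a true light chain is made, had 235, 376 and 241 normalised counts in the spleens, against 4121, 6422 and 4614 in the marrows (-4.16 ± 0.22, adjusted p = 1.42e-06). Vpreb1 differed by -4.02 ± 0.29 (adjusted p = 1.07e-05). Rag1, a subunit of the recombinase that joins antigen receptor segments, had 888, 2704 and 859.5 in the spleens, against 16959, 14254 and 18298 in the marrows (-3.69 ± 0.46, adjusted p = 0.0018). Spleen 2, from the youngest mouse, was the highest of the spleens for Rag1 and for Igll1, and still far below every marrow. Dntt, the polymerase that adds bases at the joins, was lower by 3.55 on the log2 scale, with a difference of -3.55 ± 0.19 (adjusted p = 1.42e-06). Ebf1, which commits cells to the B lineage and stays on in mature B cells, was less far apart at -1.26 ± 0.13 (adjusted p = 7.64e-05). Lef1 was the 1 member higher in spleen, with 5684, 4189 and 5971 in the spleens, against 2622, 2788 and 2368 in the marrows (1.01 ± 0.15, adjusted p = 6.36e-04). Lef1 is a transcription factor of both early B cells and T cells.

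Antibody genes were higher in spleen. Constant regions passed as higher in 5 of 8 tested and none was lower. Ighm, the IgM heavy chain, had 228458, 236031 and 256289 normalised counts in the spleens, against 148702, 141061 and 124355 in the marrows (0.80 ± 0.14, adjusted p = 0.0021). Igkc, the kappa light chain, had 33135, 34807 and 42057 in the spleens, against 9499, 9787 and 8212 in the marrows (2.0 ± 0.13, adjusted p = 4.12e-06). Both chains separated the tissues, but over the 2 mice with both tissues, with mouse as a block, Ighm did not pass (0.68, adjusted p = 0.133). Ighg3, the IgG3 heavy chain, had 312, 553 and 669 in the spleens, against 18.3, 28.6 and 9.6 in the marrows (4.74 ± 0.44, adjusted p = 3.50e-05). Variable segments of the kappa chain (Igkv) were higher in 72 of 90 tested with none lower, and those of the heavy chain (Ighv) higher in 39 of 88 with 1 lower. Jchain, which joins IgM and IgA into polymers in antibody-secreting cells, had 18420.0, 22726 and 23330.4 in the spleens, against 1188, 788 and 1021 in the marrows (4.44 ± 0.16, adjusted p = 3.51e-07). Irf4, a transcription factor used both in plasma cells and in pre-B cells, went the other way, with 3729, 6070.1 and 4700.0 in the spleens, against 13557, 10641 and 10629 in the marrows (-1.28 ± 0.18, adjusted p = 5.24e-04). Of the 15 genes listed for germinal centres and plasma cells, 6 were higher and 2 lower.

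Class II antigen presentation, by which dendritic cells, macrophages and B cells show peptides to helper T cells, was higher in spleen throughout. All 14 listed genes passed as higher, with differences of 0.89 to 3.58 and a median of 2.80. Their sums were 244679, 277076 and 331123 normalised counts in the spleens, against 39196, 41656 and 42816 in the marrows. H2-Aa, a class II alpha chain, had 41073, 48732 and 57807 in the spleens, against 4419, 4757 and 4935 in the marrows (3.37 ± 0.14, adjusted p = 4.63e-07). H2-Eb1, a class II beta chain, had 27575, 30451 and 38106 in the spleens, against 2363, 2767 and 2882 in the marrows, and gave the largest difference of the list (3.58 ± 0.14, adjusted p = 4.10e-07). Cd74, the invariant chain that escorts class II molecules, had 99673, 110448 and 137769 in the spleens, against 12546, 14649 and 15018 in the marrows (3.03 ± 0.15, adjusted p = 9.72e-07). Spleen 3 was the highest library for all 3 genes. Ciita, the master activator of class II genes, differed by 3.11 ± 0.18 (adjusted p = 2.02e-06). H2-Ob, a chain of the peptide-loading regulator H2-O, was the lowest of the 14 at 0.89 ± 0.13 (adjusted p = 7.80e-04).

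Because these genes moved together, the promoters of H2-Aa and H2-Eb1 are shown, as the 250 bases before the annotated start in RefSeq on GRCm38.p6. Class II promoters are known for a conserved upstream block that ends in a CCAAT-type element, and capitals mark CTGATTGG, a form of that element, 51 bases before the start of H2-Aa and 62 bases before the start of H2-Eb1. H2-Aa lies on the minus strand at chr17:34287824-34288073 and H2-Eb1 on the plus strand at chr17:34305617-34305866.
H2-Aa: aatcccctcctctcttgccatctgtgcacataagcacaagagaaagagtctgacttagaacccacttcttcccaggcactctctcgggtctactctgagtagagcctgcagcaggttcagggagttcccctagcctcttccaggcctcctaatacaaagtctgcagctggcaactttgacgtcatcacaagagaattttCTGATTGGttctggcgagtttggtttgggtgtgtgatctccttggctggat
H2-Eb1: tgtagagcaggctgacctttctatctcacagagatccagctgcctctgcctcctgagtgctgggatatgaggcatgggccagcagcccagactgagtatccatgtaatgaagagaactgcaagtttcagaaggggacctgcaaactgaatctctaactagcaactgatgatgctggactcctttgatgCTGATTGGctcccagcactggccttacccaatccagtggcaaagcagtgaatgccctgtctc
Searched on both strands, CTGATTGG was found in 4 of 11 matched class II windows (36.4%), those of H2-Aa, H2-Eb1, H2-Eb2 and H2-Oa, and in 1258 of all 32851 windows (3.83%). A match of letters is a description of the window and not evidence of binding.

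Dendritic-cell genes mostly followed. Of 13 listed for conventional dendritic cells, 9 were higher and 3 lower. Itgax, the integrin CD11c, had 2113, 2144 and 2692 normalised counts in the spleens, against 695, 560.1 and 713 in the marrows (1.82 ± 0.15, adjusted p = 1.61e-05). Xcr1, the chemokine receptor of cross-presenting dendritic cells, had 363, 565 and 611 in the spleens, against 128, 107 and 129.6 in the marrows (2.04 ± 0.24, adjusted p = 1.94e-04). Clec9a, a receptor for dead cells on the same subset, differed by 1.49 ± 0.24 (adjusted p = 0.00122). The spleens were higher in each. Ffar2, a receptor for short-chain fatty acids that neutrophils carry too, had 254, 311 and 288 in the spleens, against 977, 854 and 907 in the marrows (-1.68 ± 0.15, adjusted p = 3.51e-05). Plasmacytoid dendritic-cell genes were mixed, with 4 of 10 higher and 2 lower. Ccr9, a homing receptor of these cells and of T cells, was higher by 1.11 ± 0.22 (adjusted p = 0.00362), and Lag3, a receptor shared with activated T cells, by 1.92 ± 0.32 (adjusted p = 0.00149).

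Cytotoxic genes were higher in spleen in 12 of 14 tested, and none was lower. Ncr1, an activating receptor of natural killer cells, had 779, 769 and 639 normalised counts in the spleens, against 393, 325 and 358 in the marrows (1.02 ± 0.16, adjusted p = 0.00108). Gzma, a granule protease of killer cells, had 1339.5, 1613 and 1429 in the spleens, against 566, 639 and 675 in the marrows (1.22 ± 0.14, adjusted p = 1.19e-04). Eomes, a transcription factor of natural killer and memory T cells, differed by 2.24 ± 0.24 (adjusted p = 1.09e-04), and Fasl, a death ligand, by 3.09 ± 0.44 (adjusted p = 5.41e-04). Nkg7, a granule membrane protein, did not pass, with 1449.7, 1304 and 1587 in the spleens and 1779, 1644 and 1706 in the marrows (-0.24 ± 0.12, adjusted p = 0.155).

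The plot of lymphoid, antigen-presentation and macrophage genes by library shows these patterns side by side. Spleen libraries form one tight cluster and marrow libraries another for Cd3e, Cd8a, Foxp3, Fcer2a and H2-Aa, whereas Cd79a overlaps.

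**Figure D2:**
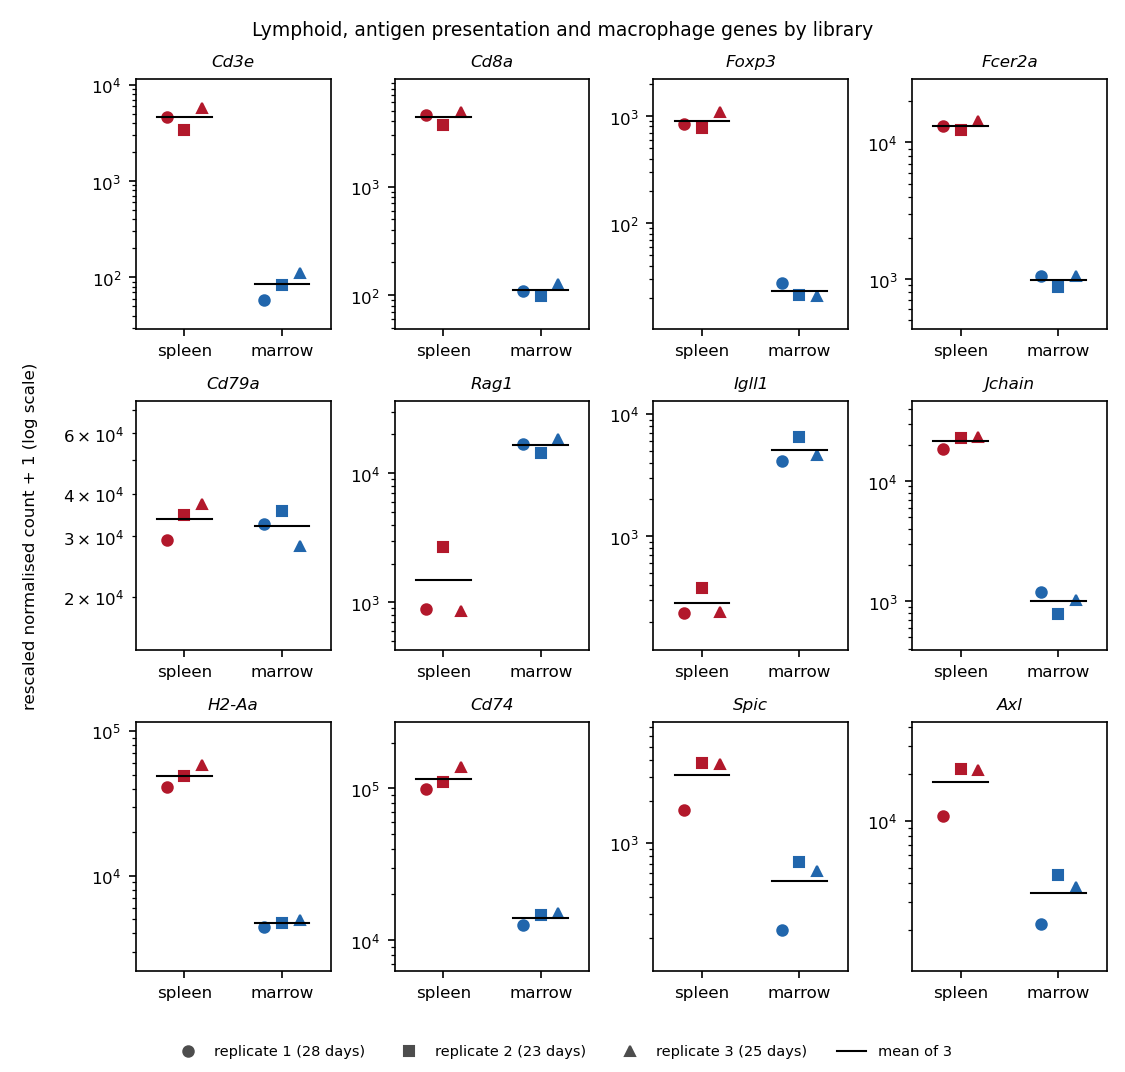
Normalised counts plus 1 (log10 axis) of 12 lymphoid, antigen-presentation and macrophage genes in each spleen and each marrow library of young wild-type mice, one symbol per library, with the mean of 3 as a bar. Cd3e lies between 3405 and 5658 in spleen and between 57.7 and 109 in marrow, while Rag1 and Igll1 lie lower in spleen than in marrow.

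Genes of red pulp macrophages, which clear aged red cells and return their iron to the blood, were higher in spleen in 18 of 18, with differences of 0.81 to 2.79 and a median of 2.22. Their sums were 115608, 204850.1 and 199735 normalised counts in the spleens, against 38706, 65989 and 54086 in the marrows. Within each tissue the library of mouse 2658 was the lowest. With 1 library left out, between 14 and 18 passed. Spic, the transcription factor that specifies these macrophages, had 1731, 3827 and 3736 in the spleens, against 229.9, 716 and 622 in the marrows (2.64 ± 0.53, adjusted p = 0.0123). Slc40a1, the iron exporter ferroportin, had 13766, 31599 and 25967 in the spleens, against 8143, 8833 and 9776 in the marrows (1.34 ± 0.28, adjusted p = 0.00789). The spleens spread more than the marrows but did not meet them. Mertk, a receptor for engulfing dying cells, differed by 2.79 ± 0.29 (adjusted p = 1.41e-04), its relative Axl by 2.36 ± 0.36 (adjusted p = 0.00267), and Cd163, the haemoglobin scavenger receptor, by 2.48 ± 0.24 (adjusted p = 6.89e-05).

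Hmox1, the heme oxygenase that opens heme to release iron, was the least steady of these. It had 6883, 22333 and 19089 normalised counts in the spleens, against 1499, 4239 and 3058 in the marrows (2.41 ± 0.60, adjusted p = 0.0337). Without marrow 1, 2 or 3 or without spleen 2 or 3 it no longer passed, at differences of 1.99, 2.74, 2.50, 2.09 and 2.21. With mouse as a random block it did not pass either (2.42, adjusted p = 0.0572).

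Macrophages of the marginal zone, the border between red and white pulp, have their own scavenger receptors. Marco, one of them, had 168, 876 and 827 normalised counts in the spleens, against 0, 6.5 and 2.78 in the marrows (7.35 ± 0.85, adjusted p = 1.94e-04). Spleen 1 was well below the other spleens and still well above every marrow. The difference was 6.53 without marrow 1, 8.05 without marrow 2 and 8.17 without spleen 1. Siglec1, the sialoadhesin of marginal metallophilic macrophages, differed by 1.32 ± 0.25 (adjusted p = 0.00331).

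Signals that organise the white pulp gave 7 of 13 higher and 1 lower. Cxcl13, the chemokine that draws B cells into follicles through Cxcr5, had 14.9, 118 and 166 normalised counts in the spleens, against 0, 1.29 and 0 in the marrows (5.69 ± 1.0, adjusted p = 0.002). The difference was 6.81 without spleen 1 and 5.03 without spleen 3. Lta, lymphotoxin alpha, had 410.3, 459.5 and 564 in the spleens, against 8.89, 22.1 and 17.7 in the marrows (4.87 ± 0.37, adjusted p = 9.83e-06). Its receptor Ltbr was lower in spleen, with 488, 638 and 661 in the spleens, against 1206, 1327 and 1402 in the marrows (-1.15 ± 0.15, adjusted p = 3.93e-04). Ccl21a, a chemokine of the T-cell zone, had 0, 123 and 223 in the spleens and 0, 0 and 1.38 in the marrows. It did not pass with all 6 libraries (4.50 ± 1.84, adjusted p = 0.0985) and passed without spleen 1, at 7.04.

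Granulocyte genes were lower in spleen as a block. All 10 listed primary granule genes, made at the promyelocyte stage, passed as lower, against 14.8% of all genes, with differences of -4.39 to -1.15 and a median of -4.07. All 18 late neutrophil genes did so too, with differences of -4.23 to -1.90 and a median of -3.56. The late genes summed to 99821, 160957 and 94116 normalised counts in the spleens, against 1352542, 1291639 and 1343565 in the marrows. All 28 passed with any one library left out. Elane, neutrophil elastase, had 1008, 1199 and 830.2 in the spleens, against 21393, 21536 and 20143 in the marrows (-4.39 ± 0.14, adjusted p = 2.49e-07). Mpo, myeloperoxidase, had 6153, 5783 and 4537 in the spleens, against 96374, 81827 and 91715 in the marrows (-4.04 ± 0.14, adjusted p = 3.51e-07). The 3 marrows were within a narrow band for both enzymes. S100a9, a calcium-binding protein of mature neutrophils, had 17641, 33001 and 18432 in the spleens, against 281767, 315586 and 284698 in the marrows (-3.73 ± 0.22, adjusted p = 2.87e-06). Ltf, lactoferrin of the secondary granules, differed by -3.45 ± 0.19 (adjusted p = 1.71e-06), and Camp, the antimicrobial peptide of the same granules, by -3.61 ± 0.30 (adjusted p = 7.52e-05). Retnlg, a resistin-like protein of neutrophils, was the furthest apart of the late genes at -4.23 ± 0.16 (adjusted p = 3.67e-07). Csf3r, the receptor for the cytokine G-CSF, was the least so at -1.90 ± 0.15 (adjusted p = 1.43e-05), and Serpinb1a, an inhibitor of elastase, the least among the primary genes at -1.15 ± 0.17 (adjusted p = 6.42e-04).

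Eosinophil genes were lower in spleen in 8 of 10 and higher in 2. Epx, eosinophil peroxidase, had 2285, 682 and 465 normalised counts in the spleens, against 33236, 16661 and 26354 in the marrows. Spleen 1 was the highest spleen, and the difference of -4.76 ± 0.66 (adjusted p = 0.00431) was -5.43 without it. Prg2, the major basic protein of the same granules, had 7321, 4562 and 1871 in the spleens, against 107098, 73974 and 87699.7 in the marrows (-4.48 ± 0.50, adjusted p = 0.0011). Ccr3, the eotaxin receptor, ran opposite to the granule genes, with 2805, 6535 and 5170.5 in the spleens, against 991, 810.2 and 1055 in the marrows (2.27 ± 0.29, adjusted p = 7.07e-04).

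Mast-cell and basophil genes split by protease. The basophil proteases were lower in spleen: Mcpt8 had 153, 108 and 227 normalised counts in the spleens, against 2362, 1877 and 2243 in the marrows (-3.78 ± 0.25, adjusted p = 4.35e-06), and Prss34 differed by -4.51 ± 0.17 (adjusted p = 3.67e-07). The mast-cell proteases were higher. Mcpt4, a mast-cell chymase, had 632, 737 and 1008 in the spleens, against 4.94, 26 and 20.5 in the marrows (5.69 ± 0.52, adjusted p = 4.08e-05), or 5.01 without marrow 1. Cma1, another chymase, had 253, 278 and 291 in the spleens, against 35.1, 32.4 and 19.2 in the marrows (3.24 ± 0.32, adjusted p = 5.21e-05). Tpsb2, a tryptase, differed by 3.52 ± 0.36 (adjusted p = 7.08e-05), and Mcpt1 was among the 10 highest genes of all. The 2 kinds of protease did not overlap between tissues in either direction. Cpa3, a carboxypeptidase that both cell types carry, was lower in spleen by less (-1.03 ± 0.18, adjusted p = 0.00215). In all, 4 of the 11 listed genes were higher and 7 lower.

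Monocyte genes were mixed, and not all members known from the patrolling kind passed. Ccr2, the chemokine receptor by which classical monocytes leave the marrow, had 2967, 3270.3 and 2646 normalised counts in the spleens, against 8353, 5160.0 and 7123 in the marrows (-1.19 ± 0.17, adjusted p = 6.41e-04). Ly6c2, a surface marker of the same cells, had 1298, 1426 and 1443 in the spleens, against 6579, 6585 and 6936 in the marrows (-2.27 ± 0.10, adjusted p = 6.64e-07). F13a1, a clotting factor subunit, was lower too (-2.70 ± 0.21, adjusted p = 1.37e-05). Nr4a1, the nuclear receptor that patrolling monocytes need, had 1806, 1999 and 2106 in the spleens, against 501, 718 and 499 in the marrows (1.80 ± 0.16, adjusted p = 3.33e-05). Cd300e, a receptor of that subset, had 232, 507 and 349 in the spleens, against 24.1, 41.5 and 35.2 in the marrows (3.36 ± 0.36, adjusted p = 8.79e-05). Ace, an enzyme of patrolling monocytes and of endothelium, was higher too (1.30 ± 0.16, adjusted p = 2.25e-04). Cx3cr1, the chemokine receptor of patrolling monocytes, did not pass, with 1029, 1118 and 975 in the spleens and 1326, 1233 and 1198 in the marrows (-0.27 ± 0.12, adjusted p = 0.126), and neither did Spn, a sialoprotein they carry (-0.26 ± 0.13, adjusted p = 0.183). With scaling to equal totals both passed as lower, at -0.52 for Cx3cr1 and -0.51 for Spn. Csf1r, the receptor for the macrophage growth factor, was higher by 1.62 ± 0.20 (adjusted p = 2.99e-04). Of 12 listed genes, 4 were higher and 6 lower.

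Genes of heme synthesis and of the red cell membrane were higher in spleen. All 12 listed heme synthesis genes passed as higher, with differences of 0.42 to 1.23 and a median of 0.79, and so did all 15 red cell membrane genes, with differences of 0.77 to 1.19 and a median of 0.92. Alas2, the first and rate-limiting enzyme of heme synthesis in red cells, had 254112, 218847 and 218563 normalised counts in the spleens, against 71916, 126592 and 103988 in the marrows (1.23 ± 0.20, adjusted p = 0.0015). Marrow 1 was the lowest of all and no marrow reached a spleen. Fech, which inserts iron at the last step, differed by 1.05 ± 0.17 (adjusted p = 0.00122). Slc4a1, the anion exchanger band 3, had 676721, 516893 and 426945 in the spleens, against 230924, 307154 and 280101 in the marrows (0.97 ± 0.20, adjusted p = 0.00569). Epb41, protein 4.1 of the membrane skeleton, had 162878, 147850.0 and 133867 in the spleens, against 51648, 73904 and 71249 in the marrows (1.19 ± 0.17, adjusted p = 5.48e-04). In both membrane genes spleen 1 was the highest library and marrow 1 the lowest, and both came from mouse 2658. The 15 membrane genes all passed with any one library left out, and 8 to 12 of the heme genes did. With scaling to equal totals, 7 of the 12 heme genes passed as higher and their median was 0.54. On the deposited values without rescaling, 3 of the 12 heme genes and 5 of the 15 membrane genes passed.

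Adult globin genes were higher too. Hba-a1, an alpha globin, had 4674044, 4701903 and 4967434 normalised counts in the spleens, against 1463873, 2890452 and 2219920.3 in the marrows (1.18 ± 0.27, adjusted p = 0.00837). Hbb-bs, a beta globin, had 4679882, 4843065 and 5038372 in the spleens, against 1410996, 2918386 and 2099732 in the marrows (1.24 ± 0.28, adjusted p = 0.00753). The spleens were nearly equal and the marrows spread over a wide range below them. Over the 2 mice with both tissues, with mouse as a block, neither passed (1.19, adjusted p = 0.118 for Hba-a1; 1.23, adjusted p = 0.102 for Hbb-bs). Hba-a2 and Hbb-bt, the second adult genes of each kind, differed by 1.28 ± 0.30 (adjusted p = 0.00949) and 1.33 ± 0.26 (adjusted p = 0.00412). The embryonic globin Hbb-y was near 0, with 7.44, 29.3 and 7.13 in the spleens and 0, 11.7 and 5.57 in the marrows, and did not pass (1.55 ± 1.11, adjusted p = 0.338).

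The start of the alpha-globin gene is shown because the globins took the largest share of these libraries. Red-cell genes are known for sites of the GATA factors, and capitals mark TGATAA, which holds the core letters of such a site, 183 bases before the start of Hba-a1. The window is the 250 bases before the start, on the plus strand at chr11:32283422-32283671, from RefSeq on GRCm38.p6.
Hba-a1: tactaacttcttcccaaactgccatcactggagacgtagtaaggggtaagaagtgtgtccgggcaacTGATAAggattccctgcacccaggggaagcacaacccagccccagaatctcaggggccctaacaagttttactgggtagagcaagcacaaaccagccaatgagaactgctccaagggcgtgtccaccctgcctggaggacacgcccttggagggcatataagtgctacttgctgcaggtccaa
TGATAA, searched on both strands, was found in 4 of 6 matched globin windows (66.7%), those of Hba-a1, Hba-a2, Hba-x and Hbb-y. It was also in 2 of 11 matched class II windows (18.2%) and in 2609 of all 32851 windows (7.94%). The windows of Hba-a1 and Hba-a2, each with 50 further bases after the start, share an unbroken identical run of 297 of 300 bases. The globin share thus counts nearly the same sequence for both, and how reads were split between these 2 genes is uncertain.

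Regulators of the red-cell line were closer to even. Of 13 transcription factors listed, 6 were higher and 2 lower. Klf1, which switches on adult globin genes, had 22665, 15781 and 17766 normalised counts in the spleens, against 8354, 13018 and 10334 in the marrows (0.83 ± 0.18, adjusted p = 0.0074). Tal1, a factor of stem cells and red-cell precursors, differed by 0.90 ± 0.15 (adjusted p = 0.00127). Myb, which keeps progenitors immature, had 6035, 5458 and 4249 in the spleens, against 24585, 20195 and 19987 in the marrows (-2.05 ± 0.15, adjusted p = 8.21e-06). Its highest spleen was far under its lowest marrow. Among genes of the response to erythropoietin, the hormone of red-cell production, 5 of 12 were higher and 1 lower. Epor, its receptor, differed by 0.79 ± 0.19 (adjusted p = 0.0109). Cish, a feedback inhibitor of its signal, had 600.1, 515 and 502 in the spleens, against 181, 184 and 252 in the marrows (1.40 ± 0.20, adjusted p = 5.71e-04), and Socs3, another, differed by 2.01 ± 0.27 (adjusted p = 3.95e-04). Osm, a cytokine induced by the hormone in other settings, was lower (-1.01 ± 0.16, adjusted p = 9.78e-04). On the deposited values without rescaling, none of the transcription factors was higher and 1 lower, and 2 of the response genes were higher and none lower.

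Platelet and stem-cell genes stood on the marrow side. Of 21 megakaryocyte and platelet genes, 15 were lower in spleen and none was higher. Itga2b, the platelet integrin CD41, had 510.0, 767 and 1139 normalised counts in the spleens, against 2167, 2779.7 and 2420.3 in the marrows (-1.68 ± 0.26, adjusted p = 0.00125). Thbs1, thrombospondin of platelet granules and monocytes, differed by -3.64 ± 0.18 (adjusted p = 9.72e-07). Pf4, platelet factor 4, had 65.4, 220.3 and 428 in the spleens and 619.7, 1641 and 776 in the marrows. Those groups did not overlap, but the gene did not pass (-2.32 ± 0.74, adjusted p = 0.0632). It passed without spleen 1, at -1.58, and without spleen 3, at -2.93. Of 16 stem and progenitor genes, 11 were lower and 2 higher, or 6 and 1 on the deposited values without rescaling. Cd34, a surface protein of progenitors, had 395, 353 and 330.1 in the spleens, against 1887, 1347 and 1830.1 in the marrows (-2.22 ± 0.17, adjusted p = 9.22e-06). Hlf, a stem-cell transcription factor, differed by -2.25 ± 0.29 (adjusted p = 3.03e-04). Slamf1, which stem cells share with T and B cells, was higher, with 761, 916 and 1009 in the spleens, against 347, 304 and 308 in the marrows (1.48 ± 0.16, adjusted p = 1.16e-04).

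In the plot of myeloid and red-cell genes by library, the granulocyte genes stand lower in spleen by more than a factor of 8 on its log axis. The red-cell genes Hba-a1, Alas2 and Slc4a1 stand higher by a factor near 2, whereas Myb stands lower.

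**Figure D3:**
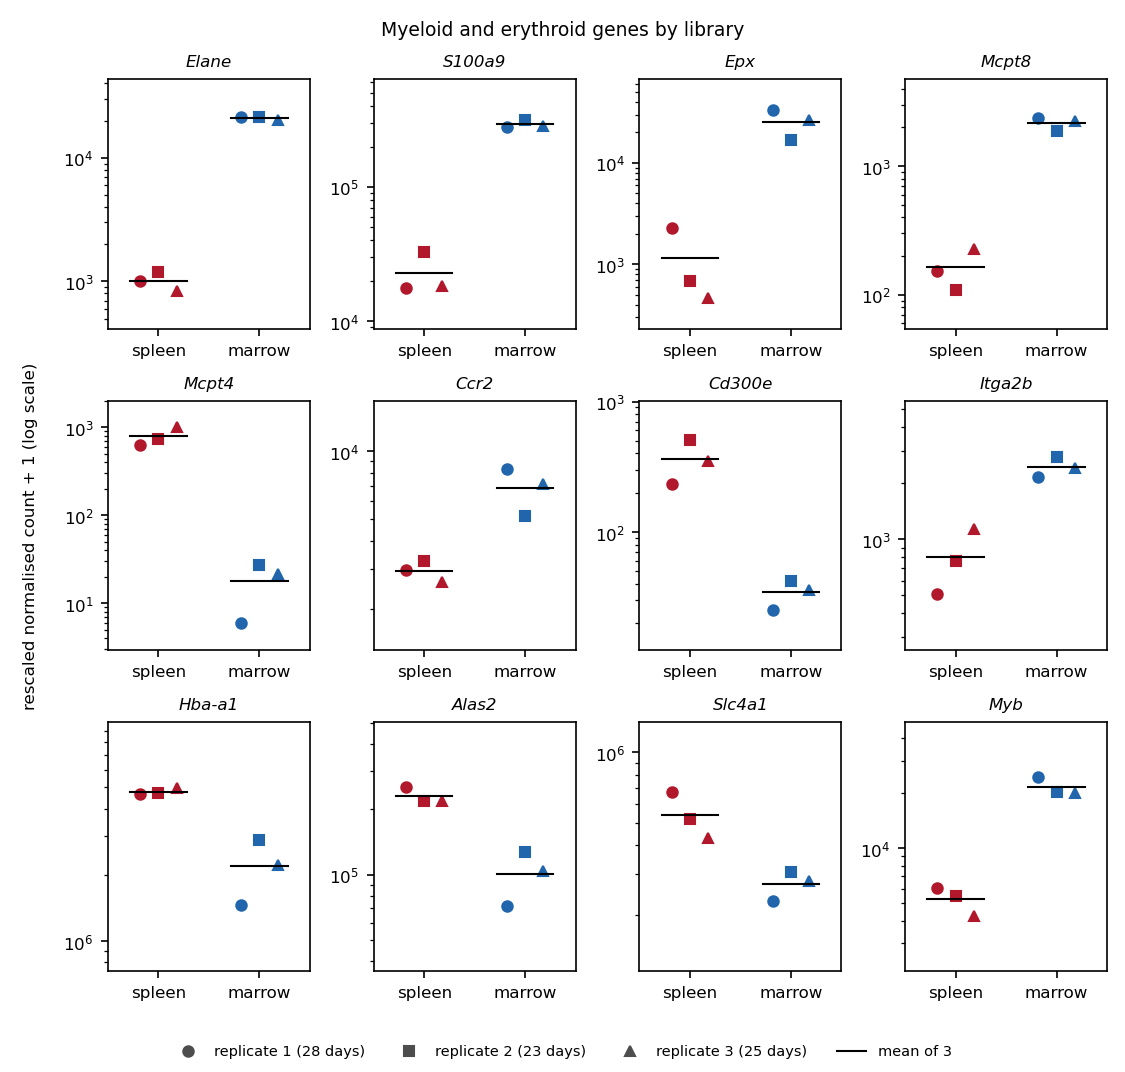
Normalised counts plus 1 (log10 axis) of 12 granulocyte, monocyte, platelet and red-cell genes in each spleen and each marrow library of young wild-type mice, one symbol per library, with the mean of 3 as a bar. Elane lies between 830.2 and 1199 in spleen and between 20143 and 21536 in marrow, whereas Mcpt4, Cd300e and Alas2 lie higher in spleen.

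Bone and cartilage genes were the lowest in spleen of all lists. Of 12 osteoblast and osteocyte genes, 10 were lower and none higher, with a median of -5.89, or -5.41 without Dmp1, which was listed at 0 in all spleens. Of 8 cartilage genes, 6 were lower. Ibsp, bone sialoprotein, had 0, 0 and 2.34 normalised counts in the spleens, against 124, 1004 and 639.6 in the marrows (-8.17 ± 0.83, adjusted p = 6.75e-05). Marrow 1 was the lowest marrow, and without it the difference was -9.03. Sp7, the transcription factor that commits cells to bone, had 1.49, 0 and 0 in the spleens, against 34.4, 536 and 209.7 in the marrows (-6.87 ± 0.97, adjusted p = 5.55e-04). It was -7.91 without marrow 1 and -6.06 without marrow 2. Spp1, osteopontin, had 55, 52 and 37.6 in the spleens, against 573, 3204 and 2341 in the marrows (-5.07 ± 0.61, adjusted p = 7.80e-04), and -5.82 without marrow 1. Col10a1, a collagen of growth-plate cartilage, had 7.44, 2.06 and 2.28 in the spleens, against 209.5, 939 and 880.0 in the marrows (-6.99 ± 0.64, adjusted p = 3.84e-05), and -7.68 without marrow 1. For all 4 genes every spleen was below every marrow and marrow 1 was the lowest marrow.

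Col1a1, the main collagen of bone, had 75.8, 802 and 1069 normalised counts in the spleens, against 8411, 118344 and 37121 in the marrows (-6.36 ± 1.55, adjusted p = 0.0421). The groups were apart, but each spread over more than 10-fold. It did not pass without marrow 1, 2 or 3 (-7.36, -5.45 and -6.29) or without spleen 2 or 3 (-6.86 and -7.07), and was -5.16 without spleen 1. With mouse as a random block it did not pass (-6.31, adjusted p = 0.0635). It passed without both libraries of mouse 2658, at -6.16. Over the 2 mice with both tissues, with mouse as a block, it passed at -6.99, in a fit with 1 residual degree of freedom. Bglap, osteocalcin, had 7.43, 6.1 and 0 in the spleens, against 70.2, 4068 and 613 in the marrows (-7.17 ± 1.61, adjusted p = 0.0187). It was -8.64, -5.77 and -7.77 without marrow 1, marrow 2 or spleen 1, and did not pass without marrow 3 (-7.10) or spleen 3 (-6.18). Bglap2 is a close copy, so the reads of the pair may be shared.

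Stromal cells of the marrow niche make the signals that hold blood progenitors in place. Of 12 listed niche genes, 6 were lower in spleen and none higher, with a median of -1.61, or -1.46 without Foxc1, which was listed at 0 in all spleens. Cxcl12, the chemokine ligand of Cxcr4, had 50.5, 656 and 921 normalised counts in the spleens and 1003, 11642 and 7917 in the marrows. No spleen reached marrow 1, but with all 6 libraries the gene did not pass (-3.84 ± 1.62, adjusted p = 0.162). Without both libraries of mouse 2658 it passed, at -3.62 (adjusted p = 1.25e-05). Over the 2 mice with both tissues, with mouse as a block, Cxcl12 passed too, at -4.22, in a fit with 1 residual degree of freedom. Adipoq, adiponectin of marrow stromal and fat cells, had 0, 4.04 and 0 in the spleens, against 40.8, 689 and 226 in the marrows (-6.77 ± 1.05, adjusted p = 0.00104). It was -7.81 without marrow 1, -5.89 without marrow 2 and -7.46 without spleen 2. Shox2, a limb patterning gene, had 0, 2.02 and 0 in the spleens, against 28.7, 110.3 and 115 in the marrows (-5.65 ± 0.85, adjusted p = 7.80e-04), and -6.25 without marrow 1.

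Genes known for setting up the spleen's own mesenchyme were mixed. Of 6 tested, 2 were higher and 1 lower, with a median of 3.00, or 1.47 without Tcf21 and Wt1, which were listed at 0 in all marrows. Tlx1, a homeobox gene needed to form the spleen, had 10.4, 103 and 69.9 normalised counts in the spleens, against 0, 3.9 and 0 in the marrows (4.69 ± 1.07, adjusted p = 0.00846). It was 5.53 without marrow 2 and 5.73 without spleen 1, and did not pass without spleen 2 (4.01) or spleen 3 (4.34). Tcf21, another mesenchymal factor, had 4.45, 178 and 122 in the spleens, and was listed at 0 in each marrow. The count of members that passed was 5 without spleen 1 and 1 without spleen 2 or spleen 3. Coch, a matrix protein, had 83.3, 1715 and 1699 in the spleens, against 0, 2.61 and 0 in the marrows (8.67 ± 1.19, adjusted p = 0.00107). It was 9.37 without marrow 2, 10.19 without spleen 1, 7.88 without spleen 2 and 7.95 without spleen 3.

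Connective tissue was low in both libraries of mouse 2658. Col3a1, a fibrillar collagen, had 80.3, 1373 and 1542 normalised counts in the spleens and 139, 2193 and 1353 in the marrows (-0.42 ± 1.76, adjusted p = 0.892). Col4a1, a basement membrane collagen, had 164, 2197 and 2983 in the spleens and 263, 2679.5 and 1442 in the marrows (0.03 ± 1.58, adjusted p = 0.993). Spleen 1 and marrow 1, the pair from that mouse, were the lowest of their tissue for both collagens. Of 16 extracellular matrix genes, 2 were lower with all libraries. Without both libraries of mouse 2658, 2 were higher and 9 lower; without marrow 1 alone, and again without spleen 1 alone, 1 was higher and 3 lower. Fn1, fibronectin, which monocytes also make, passed with all libraries, with 5873, 4756 and 4744 in the spleens, against 26494, 15222 and 24058 in the marrows (-2.06 ± 0.20, adjusted p = 5.09e-05). Endothelial genes passed as higher in 1 of 18 and lower in 5. Without mouse 2658, 19 were tested, with 2 higher and 8 lower. The part of sampling in this spread was not tested.

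Genes listed for pancreas and skeletal muscle gave small sums. Whether these transcripts came from neighbouring tissue was not tested. Of 16 pancreas genes listed, 14 had a row and 2 could be tested, with 1 higher in spleen. The 14 summed to 412, 831 and 1074 normalised counts in the spleens, against 114, 239 and 187 in the marrows. The elastase-like gene Cela1 had 395, 800.1 and 850.5 in the spleens, against 112, 218 and 167 in the marrows, while Ctrb1, chymotrypsinogen, was listed at 0, 0 and 43.5 in the spleens and 0, 0 and 0 in the marrows. Of 12 skeletal muscle genes, 6 could be tested and none passed, and the sums overlapped, at 1018, 729.7 and 774 in the spleens and 545, 1147 and 759 in the marrows.

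The plot of stromal genes by library shows both features: Col2a1, Ibsp and Bglap at or near the floor in spleen, and the library of mouse 2658 low in each tissue for Col1a1, Cxcl12, Col3a1 and Col4a1.

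**Figure D4:**
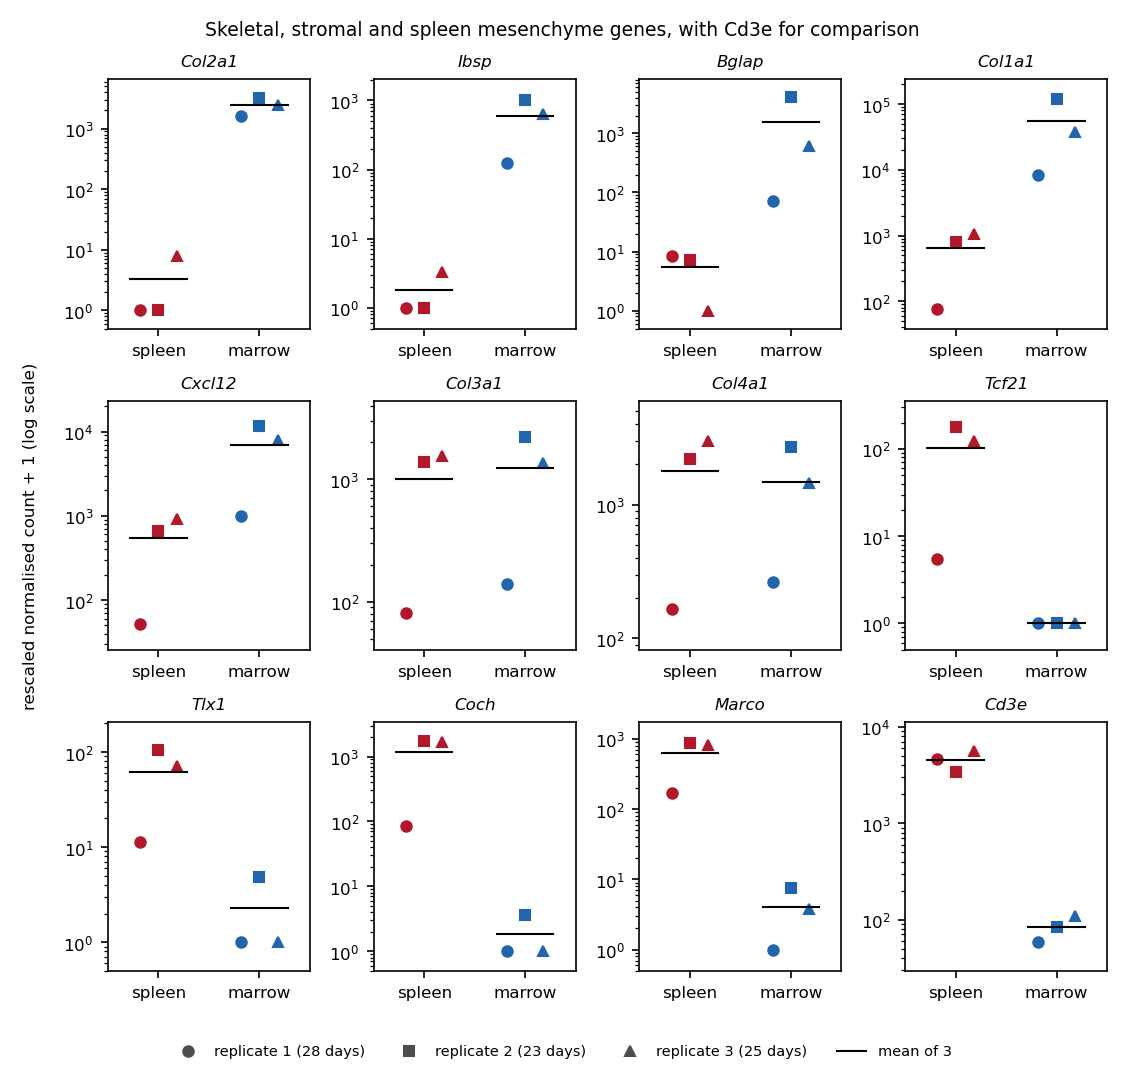
Normalised counts plus 1 (log10 axis) of bone, cartilage, niche, matrix and spleen stromal genes in each spleen and each marrow library of young wild-type mice, one symbol per library and the mean of 3 as a bar, with Cd3e for comparison. Col3a1 reads 80.3 in spleen 1 and 139 in marrow 1, both from mouse 2658, against 1353 or more in the other libraries.

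Receptors that place leukocytes in tissue were higher in spleen in 6 of 12 and lower in 2. S1pr1, the sphingosine phosphate receptor that lets lymphocytes leave tissue, had 9098, 8572 and 9490.3 normalised counts in the spleens, against 1690.0, 1762 and 1514 in the marrows (2.45 ± 0.11, adjusted p = 6.51e-07). Ccr7, which guides T cells and dendritic cells to the T-cell zone, had 5761, 4639 and 6472 in the spleens, against 1396, 1170.0 and 1068 in the marrows (2.21 ± 0.15, adjusted p = 5.25e-06). Cxcr4, the marrow retention receptor, had 8504, 9715 and 7827 in the spleens, against 23904, 21569 and 24583 in the marrows (-1.43 ± 0.12, adjusted p = 1.90e-05). Its groups did not overlap either, with every spleen below every marrow.

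Interferon-response genes were higher in spleen in 9 of 13 and lower in none, with a median of 1.15. Isg15, a ubiquitin-like protein, had 6105, 5915 and 6132 normalised counts in the spleens, against 1806, 2809 and 2308 in the marrows (1.41 ± 0.15, adjusted p = 9.73e-05). Rsad2, the antiviral enzyme viperin, had 64521, 64587 and 52801 in the spleens, against 18144, 24349 and 29614 in the marrows (1.36 ± 0.18, adjusted p = 3.93e-04). Gbp2, a guanylate-binding protein induced by interferon gamma, differed by 2.23 ± 0.16 (adjusted p = 7.28e-06). Among NF-kB and inflammatory genes, 6 of 13 were higher and 1 lower, or 2 and none on the deposited values without rescaling. Nfkb2, a subunit of the non-canonical pathway, differed by 0.99 ± 0.13 (adjusted p = 3.54e-04). Traf1, a signalling adaptor of lymphocytes, had 1348, 1393 and 1805 in the spleens, against 45.3, 103 and 78.1 in the marrows (4.38 ± 0.29, adjusted p = 4.18e-06).

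Cell-cycle genes hardly separated the tissues. Of 20 genes of DNA replication none was higher and 1 was lower, and of 20 genes of mitosis none was higher and 3 were lower. Mcm2, a subunit of the replicative helicase, had 24687, 18877 and 17994 normalised counts in the spleens and 18979.6, 21177 and 19245 in the marrows (0.04 ± 0.14, adjusted p = 0.87). Mki67, the proliferation marker Ki-67, had 271725, 184291 and 146237 in the spleens and 147618, 146692 and 151158 in the marrows (0.39 ± 0.21, adjusted p = 0.208). Bub1b, a spindle checkpoint kinase, was lower, with 9835, 8388 and 6499 in the spleens, against 12901, 12265 and 12497 in the marrows (-0.63 ± 0.15, adjusted p = 0.0103). For mitosis, 8 were lower without spleen 1 and 1 without marrow 3, spleen 2 or spleen 3. For DNA replication, 2 were lower without marrow 1 or spleen 1, 1 was higher and 1 lower without marrow 2, and none passed without marrow 3, spleen 2 or spleen 3. With scaling to equal totals, 9 mitosis and 8 replication genes were lower, and on the deposited values without rescaling none passed. Over the 2 mice with both tissues, with mouse as a block, Bub1b did not pass (-0.47, adjusted p = 0.141).

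Rasa3, the gene mutated in the strain's scat homozygotes, switches off the small GTPases Ras and Rap1. In the wild-type mice it had 13585, 13051 and 13454 normalised counts in the spleens, against 8338, 8117 and 8574 in the marrows. Both tissues were tight, and Rasa3 was 1.60-fold higher in spleen (0.68 ± 0.10, adjusted p = 6.23e-04). On the deposited values without rescaling it did not pass (0.71, adjusted p = 0.269). Of 21 listed regulators and members of the Ras and Rap pathways, 9 were higher and 3 lower, or 4 and 3 without marrow 3, and 3 and 2 on the deposited values without rescaling. Rasgrp3, an activator of both GTPases in B cells, had 3765, 4704 and 4762 in the spleens, against 625, 628 and 692 in the marrows (2.76 ± 0.13, adjusted p = 8.20e-07). Rasal3, a Ras inhibitor of lymphocytes, differed by 1.41 ± 0.16 (adjusted p = 1.13e-04). Rasgrp4, an activator in mast cells and neutrophils, had 1138, 1383 and 1108 in the spleens, against 6954, 5236 and 6436 in the marrows (-2.36 ± 0.14, adjusted p = 2.46e-06).

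The older wild-type mouse of 32 days, 1 animal with no replicate, was not part of these tests. In it, 2280 of the 2457 genes that were higher in young spleen (92.8%) were also higher in spleen, and 2365 of the 2426 that were lower (97.5%) were also lower. At 2-fold or more the shares were 1282 of 1296 (98.9%) and 1336 of 1352 (98.8%). Over all genes tested, 14.1% were higher and 13.5% lower by at least 2-fold in that mouse. The shares of called genes above count the same direction at any size in the older mouse. The 2-fold shares are therefore not their background. Some list medians lay well apart between the ages. The heme synthesis median was -0.00 in the older mouse against 0.79 in the young, with 6 of 12 in the same direction, and the red cell membrane median was 0.13 against 0.92, while the globin median was 0.87 against 1.24 with 7 of 7 in the same direction. The mitosis median was -1.03 in the older mouse against -0.16 in the young, the DNA replication median -0.69 against -0.07, the megakaryocyte and platelet median -0.62 against -1.83, and the mature B-cell median 1.30 against 0.43. None of these differences could be tested with 1 older mouse. T-cell, class II and late neutrophil medians were 4.69, 3.10 and -3.64 in the older mouse, against 4.30, 2.80 and -3.56 in the young mice.

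The tissue difference of mutants in crisis was then set against that of young wild-type mice, in one fit over 12 libraries brought to a common scale. The quantity tested was the spleen-minus-marrow difference in crisis minus that in wild type. Of 16359 genes tested, 943 (5.76%) were above 0 and 2024 (12.4%) below. With mouse as a random block, 1611 were above and 2642 below, and all 2967 of the first calls were among them. The count above 0 depended on single libraries: it was 523 or 464 without wild-type marrow 1 or 3, 584 or 412 without wild-type spleen 2 or 3, 627 without crisis marrow 3 and 1428 without crisis spleen 3.

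T-cell and class II differences between the tissues were smaller in crisis. Of 9 antibody constant regions 1 was below 0, and of the 18 pro-B and pre-B genes none was below 0 and 1 was above. Mature B-cell genes were below 0 in 9 of 21, and marginal zone and B1 genes in 6 of 12, with none above. Germinal centre and plasma-cell genes were below 0 in 5 of 15, and conventional dendritic-cell genes in 9 of 13, again with none above. For T-cell genes the quantity was below 0 in 24 of 25 and above 0 in none, with a median tissue difference of 0.39 in crisis, against 4.32 in wild type. Cd3e had 170, 643 and 521 normalised counts in crisis spleens and 70.4, 488 and 519 in crisis marrows, against 4651, 3412 and 5678 in wild-type spleens and 56.7, 81.2 and 107 in wild-type marrows. Crisis spleens lay far below wild-type spleens, and 2 of the 3 crisis marrows lay above all wild-type marrows. The change in its tissue difference was -5.25 ± 0.98 (adjusted p = 0.0038), or -6.19 without crisis marrow 1 and -4.64 without crisis spleen 1. Cd8a changed by -4.94 ± 0.83 (adjusted p = 0.00195), or -5.86 without crisis marrow 1. Class II genes were below 0 in 12 of 14, with medians of 0.29 in crisis and 2.84 in wild type. H2-Aa had 6699, 11392 and 7567 in crisis spleens and 3912, 7720 and 7890 in crisis marrows, against 41065, 48837 and 58009 in wild-type spleens and 4336, 4647 and 4832 in wild-type marrows (-2.98 ± 0.37, adjusted p = 2.57e-04). Here the crisis tissues overlapped, while the wild-type tissues did not. Cd74 changed by -2.75 ± 0.28 (adjusted p = 8.16e-05).

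Other immune groups shifted the same way. Cytotoxic genes were below 0 in 13 of 14, with a median tissue difference of -1.42 in crisis, against 2.09 in wild type, and homing receptors in 10 of 12. Gzmb, the killer-cell protease granzyme B, had 24.1, 52.8 and 34.4 normalised counts in crisis spleens and 98.7, 207 and 129 in crisis marrows, against 492, 349 and 365 in wild-type spleens and 110, 76 and 117 in wild-type marrows. Its tissue order was thus opposite in the 2 genotypes, with a change of -3.93 ± 0.52 (adjusted p = 3.89e-04). Cma1 had 15.3, 7.55 and 28.4 in crisis spleens and 42, 214 and 243 in crisis marrows, against 253, 279 and 292 in wild-type spleens and 34.4, 31.7 and 18.8 in wild-type marrows (-6.31 ± 0.89, adjusted p = 5.78e-04, and -7.11 without crisis marrow 1). S1pr1 changed by -2.59 ± 0.27 (adjusted p = 9.90e-05). Monocyte genes were below 0 in 7 of 12, and Ccr2, already lower in wild-type spleen, changed by -2.46 ± 0.37 (adjusted p = 9.23e-04). NF-kB and inflammatory genes were below 0 in 10 of 13, and Bcl3, an atypical NF-kB inhibitor, changed by -2.59 ± 0.30 (adjusted p = 1.61e-04). Rasa3 had 2136, 3297 and 3375 in crisis spleens and 6840, 8107 and 8602 in crisis marrows, against 13582, 13079 and 13501 in wild-type spleens and 8182, 7929 and 8396 in wild-type marrows. The mutant spleens were the low group, and the change was -2.15 ± 0.22 (adjusted p = 8.94e-05).

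Cell-cycle genes shifted upward, with a wild-type median near 0. The quantity was above 0 in 12 of 20 genes of DNA replication and 14 of 20 of mitosis, and below 0 in none. Mcm6, another helicase subunit, had 45821, 39796 and 35221 normalised counts in crisis spleens and 23957, 25439 and 20423 in crisis marrows, against 22815, 18508 and 16631 in wild-type spleens and 21075, 23119 and 21448 in wild-type marrows (0.98 ± 0.20, adjusted p = 0.00622). Crisis spleens were above every other library. Bub1b changed by 1.24 ± 0.24 (adjusted p = 0.00365). The replication count was 7 or 6 without wild-type marrow 1 or 3, 4 without wild-type spleen 3, 6 without crisis marrow 2 or 3, and 20 without crisis spleen 3; with mouse as a random block it was 19. On the deposited values without rescaling, none of the 20 replication and none of the 20 mitosis genes passed. Of the 12 heme, 7 globin and 15 membrane genes none passed in this test, and Alas2 had 387909, 527286 and 296536 in crisis spleens and 198558, 204918 and 181302 in crisis marrows, against 254061, 219320 and 219324 in wild-type spleens and 70565, 123663 and 101825 in wild-type marrows (-0.25 ± 0.32, adjusted p = 0.629). Every crisis library was above every wild-type library of its own tissue, and the gap between tissues was of similar size.

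The plot of list medians in the 2 genotypes shows the T-cell and class II lists near 0 in crisis and high in wild type, and the cytotoxic list below 0 in crisis and above 0 in wild type. The late neutrophil list lies at -3.77 in crisis and -3.52 in wild type, and the antibody constant-region list at 1.5 in crisis and 2.06 in wild type.

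**Figure D5:**
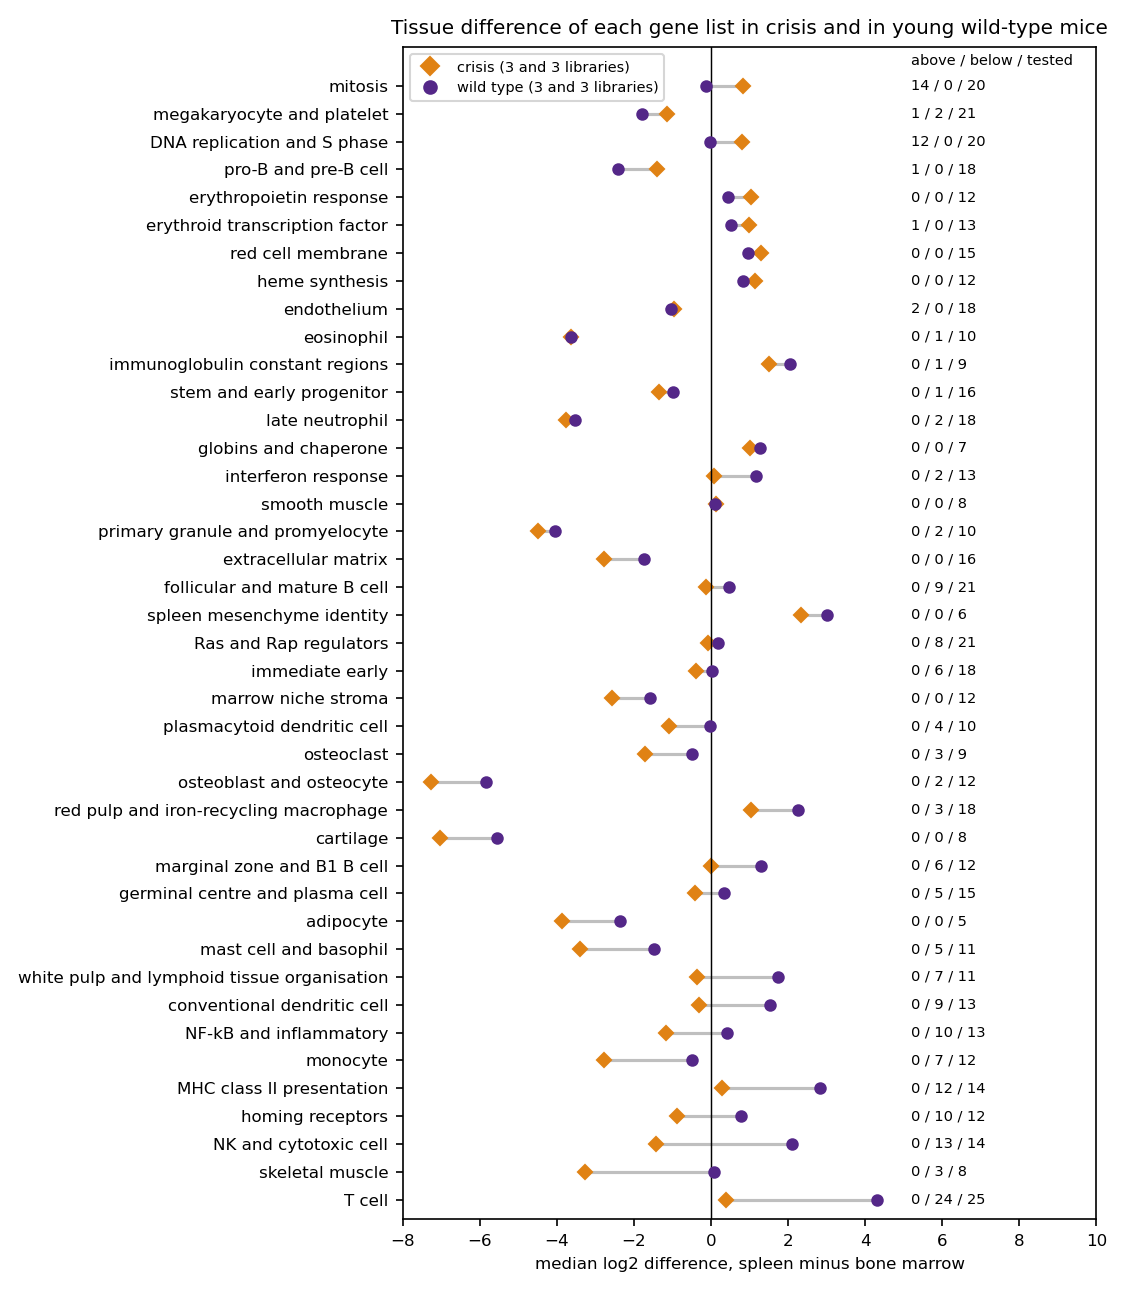
Median spleen-minus-marrow difference (log2 scale) of each gene list in mutants in crisis (diamonds) and in young wild-type mice (circles). Both come from a single fit over 12 libraries. Numbers at the right give members whose crisis tissue difference passed as above or below that of wild type, and members tested. T-cell genes have a median of 0.39 in crisis and 4.32 in wild type.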

How the data were processed

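Total RNA from whole spleen and whole bone marrow was made into libraries with a KAPA mRNA HyperPrep kit, per the labels' protocols. The strand setting is not given in the sources used here. The submitters' processing notes name Bowtie2 2.2.0, RSEM, DESeq2 and GRCm38 without their order. The main table holds the authors' deposited normalised counts, treated here as a signal because the values are fractional and the columns are not on one scale: totals were 51.8, 93.3 and 75 M in the spleens and 70.5, 46.6 and 62.3 M in the marrows. A second deposited table holds regularised log2 values by the authors and served only as an alternative. Count tests were not used, since the values are not whole reads. The depth given for each library is an estimate from the steps between low values.

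The 6 columns were rescaled by median ratio. Genes averaging 10 or more over the 6 columns were tested as log2(value + 1) in limma 3.58.1 (R 4.3.3, statmod 1.5.0), with trend and robust empirical Bayes and Benjamini-Hochberg adjustment over all genes tested at 0.05. The test across genotypes used 12 columns rescaled together and an interaction term. Shares were compared by exact permutation in scipy 1.17.1 (Python 3.11.15, numpy 2.4.6, pandas 2.3.3). P-values measure the spread between these few mice, and spleen and marrow share 2 of them. Replicate 3 is a different mouse in each tissue, so the block was the mouse: deviations of the 2 same-mouse pairs correlated at 0.302 and 0.013, and those of the other pairs at -0.264 to 0.249. Both fits were tested on simulated data in which 200 genes were changed. For spleen against marrow, 43.0% of differences of size 1 on the log2 scale were recovered, and 73.2% of size 2. For the difference of tissue effects the shares were 40.4% and 72.0%. In the data 29.7% of genes differed, so the simulation did not test the scaling under so wide a change.

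Of 26286 gene identifiers, 25607 matched GENCODE M21 and 679 did not. Named genes were Rasa3, the first 3 of each of 45 gene lists, the 10 largest differences in each direction among genes that passed without overlap and with a mean of at least 100 in the higher tissue, the furthest member of each list in each direction, the 5 most variable and the 5 most abundant per tissue. Other genes were named after their values were seen, and the members and lists were chosen with earlier results of these data known. Alternatives were other scalings, pseudocounts of 0.5 and 10, no filter or a mean of at least 50, leaving out each library, leaving out mouse 2658 (chosen after seeing the data), the mouse as a block, a spread from all whole-tissue libraries, the regularised table, and empirical Bayes without trend. One whole-spleen library, whose label conflicts with that of the marrow bearing its number, was put in no group. Listed genes with no matched row were not analysed here. Results for a few genes are not reported here, though those genes stay in the counts and medians of their lists.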

Additional observations from a re-analysis of the deposited data

Results flagged for a closer look

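The tissue difference itself differed between mutants in crisis and young wild-type mice, by an interaction term in limma over 12 libraries. The change in the tissue difference, crisis minus wild type, was above 0 for 943 genes and below 0 for 2024 of 16359. Among genes described above, this change was below 0 for Cma1 (-6.31), Cd3e (-5.25), Cd8a (-4.94), Gzmb (-3.93) and H2-Aa (-2.98). So it was for Cd74 (-2.75), S1pr1 (-2.59), Bcl3 (-2.59), Ccr2 (-2.46) and Rasa3 (-2.15). A change below 0 does not by itself put spleen below marrow in crisis. The change was above 0 for Bub1b (1.24) and Mcm6 (0.98). Crisis marrow 1 was the lowest crisis marrow for Cd3e, Cd8a, Gzmb and Cma1, and its part in these differences was measured only by leaving it out. Groups of 3 libraries are too small for a test of single outlying libraries.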

How the results depend on the processing

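For young spleen against marrow, no gene that passed in both the main setting and any alternative changed sign. The counts were 1163 higher and 1175 lower on the deposited values without rescaling, 1660 and 4624 with equal totals, and 850 and 1232 with the spread of all whole-tissue libraries. Leaving out 1 library gave 1836 to 2421 higher and 1679 to 2364 lower, and leaving out mouse 2658 gave 2049 and 2068. With mouse as a random block the counts were 2288 and 2261, and over the 2 mice with both tissues 1855 and 1767. The random block used a common within-mouse correlation for all genes, which was estimated at -0.142. Among the genes named, the random block ended the call for Col1a1 and Hmox1 only, and the block over 2 mice for Bglap, Bglap2, Ighm, Hba-a1, Hbb-bs and Bub1b. The deposited values ended it for Col1a1, Spib, Fcrla, Lef1, Ighm, H2-Ob, Ncr1, Cpa3, Klf1, Tal1, Epor, Osm, Bub1b, Nfkb2, Rasa3, Acp5 and Bcl3. The spread of all whole-tissue libraries, which hold mutants too, ended it for 41 of the genes named, Alas2, Hba-a1, Slc4a1, Rag1, Igll1, Ccr2 and Rasa3 among them. Upper-quartile scaling, other pseudocounts, other filters, the regularised log2 table and empirical Bayes without trend left both counts within 1.5-fold.

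For the difference between genotypes, the deposited values gave 20 above and 787 below, and the random block 1611 and 2642. The common within-mouse correlation of that block was 0.274. Leaving out 1 library gave 412 to 1428 above and 1471 to 2514 below. On the deposited values Mcm6 and Bub1b did not pass in that test. Elane passed there only without crisis spleen 3, at -1.17, against -0.51 with all libraries.

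Under equal totals the list median changed sign for Ras and Rap regulators (-0.10, against 0.15) and smooth muscle (-0.17, against 0.07). It did so too for osteoclast (-0.12, against 0.12) and skeletal muscle (-0.13, against 0.11). The immediate early median went from 0.00 to -0.25, which was also the median of all genes under equal totals. A gene that did not pass is not shown to be equal between tissues, since 3 libraries a tissue set the precision. The cause of these shifts was not tested.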

Other observations

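Immediate early genes, which answer signals within minutes, were mixed, with 5 of 18 higher in spleen and 3 lower. Egr3, which antigen receptors induce in lymphocytes, had 1460.0, 1575 and 1486 normalised counts in the spleens, against 166, 159.7 and 204 in the marrows (3.10 ± 0.16, adjusted p = 1.10e-06 by limma). Klf4, a factor of monocytes, had 488, 514 and 581 in the spleens, against 1616, 1227 and 1327 in the marrows (-1.39 ± 0.15, adjusted p = 9.68e-05). Egr3 was thus high in every spleen and Klf4 in every marrow.

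Genes listed for osteoclasts, the macrophage-like cells that resorb bone, split as well, with 3 of 8 higher in spleen and 4 lower. Ctsk, the bone collagen protease cathepsin K, had 44.6, 10.3 and 39.5 normalised counts in the spleens, against 351, 946 and 603 in the marrows (-4.41 ± 0.56, adjusted p = 4.33e-04). Mmp9, a gelatinase that neutrophils also store, had 2901, 3657 and 1839 in the spleens, against 42523, 34000.4 and 42848 in the marrows (-3.88 ± 0.23, adjusted p = 3.86e-06). Acp5, an acid phosphatase that other macrophages also make, was higher, with 10137, 8609.6 and 8624 in the spleens, against 4018, 6021 and 5413 in the marrows (0.84 ± 0.16, adjusted p = 0.00275).

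Of 8 smooth muscle genes tested, 1 was higher in spleen and 1 lower, or 4 and 2 without both libraries of mouse 2658. Smtn, smoothelin, had 279, 313 and 308 normalised counts in the spleens, against 1838, 2065 and 1833 in the marrows (-2.67 ± 0.13, adjusted p = 1.05e-06). Actg2, a smooth muscle actin, was higher in spleen (3.02 ± 0.60, adjusted p = 0.00423).

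The genes that varied most among libraries of one tissue included Gm10718, with 0, 1475 and 233 normalised counts in the spleens and 0, 70 and 60.5 in the marrows, and the processed pseudogene Gm9843, with 1399.9, 0 and 28 in the spleens and 1.92, 1849 and 278 in the marrows. The Y-linked gene Eif2s3y had 4227, 5034 and 3230.5 in the spleens and 4887, 4368 and 133 in the marrows, so marrow 3 stood apart for that gene but not for Ddx3y.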
